A study of Mus musculus with 12 samples.

Results

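Replication-dependent histone genes encode the core histones H2A, H2B, H3 and H4 and the linker histone H1, whose RNA is made mainly while a cell copies its DNA. The genes described here were the protein-coding mouse genes whose symbol or older name begins with Hist1h, Hist2h, Hist3h or Hist4h and whose level reached 1 CPM (reads of the gene scaled to a common library total) in at least 2 of 12 libraries. RefSeq held 67 such protein-coding genes and 3 pseudogenes, and all 67 had a row in the deposited table, but only 5 of them passed the CPM filter, of 12502 genes that passed it in all. These 5 were H2bc21 (older name Hist2h2be) and H2bc4 (Hist1h2bc), which encode H2B, H1f2 (Hist1h1c), which encodes H1, H2aw (Hist3h2a), which encodes H2A, and H4c9 (Hist1h4i), which encodes H4. No gene for H3 passed.

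The libraries came from 3 mouse breast cancer cell lines that the labels call mesenchymal. PyMT-1099 LT and Py2T LT were from mammary tumours of the MMTV-PyMT strain, in which the MMTV promoter drives a viral oncogene in the mammary gland. MT∆Ecad was from mammary tumours of the MMTV-Neu strain, and E-cadherin (gene Cdh1) is deleted in this line. Each line received an siRNA against Nrf2 (siNrf2, gene Nfe2l2, a transcription factor of the oxidative stress response) or a non-targeting siRNA (siCtl) for 48 hours, with 2 replicates in each of the 6 groups. The replicates are biological duplicates in the series' text, so p-values measure only the spread between these samples. Each line is a single line, so differences between lines describe these lines and not the strains or the E-cadherin deletion. Total RNA was depleted of ribosomal RNA before library preparation, per the labels, and single reads of 81 bases were sequenced.

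Most histone mRNAs are unusual in that they are not polyadenylated. They end shortly after a conserved stem-loop, which is bound by the stem-loop binding protein Slbp and cut with the help of the U7 small nuclear RNA, and they are degraded when DNA synthesis stops. Some of the same genes can also give a longer RNA that runs past the stem-loop to a polyadenylation signal, and such RNA has been described in cells that have left the cycle.

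The stem-loops are shown first because they mark where the replication-dependent RNA would end. A stem-loop was searched after the stop codon of each GENCODE M21 transcript as a stem of 6 base pairs, with G:T pairs allowed, that starts with GG and ends with CC around a loop of 4 bases. It was found in 46 of the 67 genes, a median of 31 bases after the stop codon (range 21 to 58). Many genes without a match had no sequence to search. The annotated transcripts of H1f5, H2ac13, H2bc18 and H4c12, for example, have 0 bases after the stop codon. For such genes a missing match does not show that the stem-loop is absent. Of the 5 genes past the filter, 3 had a match. Below are these 3, followed by H1f4 (an H1 gene) and, chosen after its values were seen, H4c4 (an H4 gene), which did not pass the filter; the capitals mark the 16 bases of stem and loop.
H1f2: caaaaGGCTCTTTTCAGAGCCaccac
H2aw: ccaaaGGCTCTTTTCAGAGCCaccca
H4c9: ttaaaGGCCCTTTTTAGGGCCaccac
H1f4: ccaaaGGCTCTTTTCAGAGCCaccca
H4c4: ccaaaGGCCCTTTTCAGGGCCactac
The 16 bases of H1f2 and H2aw were identical, and 26 of the 46 genes, of types H1, H2A, H2B and H3, carried this form. All 12 H4 genes with a match, H4c9 among them, had a different stem. It began with GGCCC in 10 of them, as the H4c9 and H4c4 lines show, and with GGTCC in the other 2. No match was found after the stop codons of H2bc21 and H2bc4 in their annotated transcripts. The annotated transcript of H2bc4 has 2 exons, and that of H2bc21 has a 3′ untranslated stretch of 2192 bases.

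Annotated ends lay far beyond the stem-loop in all 3 of these genes. The transcript ran on for 840 bases in H1f2, for 1643 in H2aw and for 330 in H4c9, against a median of 57 bases in the 43 genes with a stem-loop below the filter. Long ends were not particular to these 3 genes. Of the 43, 20 also ran on for more than 100 bases, such as H1f3 with 4884. A polyadenylation signal AATAAA was present in the last 50 bases of a transcript of H2bc21, H1f2 and H2aw, and of 12 of the 62 genes below the filter. RefSeq ends these 3 genes earlier than GENCODE, with spans of 725 bases for H1f2, 508 for H2aw and 403 for H4c9, and ends H2bc4 earlier as well, with a span of 8282 bases against 8710. Which annotation the deposited values used is not given in the sources used here, so it is not known whether reads past the stem-loop were counted. The GENCODE positions on GRCm38 are chr3:96221119-96223738 (plus strand) for H2bc21, chr13:23684199-23692908 (plus) for H2bc4, chr13:23738808-23740367 (plus) for H1f2, chr11:58954685-58956830 (plus) for H2aw and chr13:22040636-22041362 (minus) for H4c9. H2bc4, H1f2 and H4c9 therefore lie in the histone cluster of chromosome 13. The gene Trim17 overlaps H2aw on the same strand in GENCODE, so reads could have been split between them; Trim17 itself was at 0 to 0.0648 CPM.

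The promoters of H2aw and H1f2 are shown because these genes were both called higher after siNrf2 in MT∆Ecad in a fit that pairs samples of the same replicate number. H2bc4 was called in that fit too and is named only, because the promoter sequences used here held none for it. They are RefSeq GRCm38.p6 sequences of 300 bases, from 250 before the start, at chr11:58954435-58954734 (plus strand) and chr13:23738557-23738856 (plus strand); capitals mark matches to CCAAT and, in H2aw, ATTTGCAT, on either strand.
H2aw: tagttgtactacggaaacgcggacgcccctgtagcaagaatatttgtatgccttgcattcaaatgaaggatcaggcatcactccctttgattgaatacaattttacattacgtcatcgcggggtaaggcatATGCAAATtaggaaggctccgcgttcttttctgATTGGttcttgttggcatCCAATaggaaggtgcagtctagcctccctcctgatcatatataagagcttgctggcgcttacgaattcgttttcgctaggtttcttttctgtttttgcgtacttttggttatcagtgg
H1f2: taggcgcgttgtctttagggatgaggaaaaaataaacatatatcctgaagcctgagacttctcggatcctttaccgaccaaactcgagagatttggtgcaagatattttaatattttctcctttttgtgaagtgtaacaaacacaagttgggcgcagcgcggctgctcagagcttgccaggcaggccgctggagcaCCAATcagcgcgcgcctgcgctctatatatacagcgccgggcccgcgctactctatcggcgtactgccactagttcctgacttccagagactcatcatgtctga
CCAAT is the site of the factor NF-Y and ATTTGCAT is the octamer known from H2B promoters. The exact string TATAAA was in neither of these promoters and was found in that of H4c9, which held no CCAAT or ATTTGCAT. Over 63 promoters of the family, CCAAT was in 85.7%, TATAAA in 55.6% and ATTTGCAT in 22.2%, against 37.4%, 13.6% and 1.74% of all 32851 promoters in the table. All H1, H2A, H2B and H3 promoters held CCAAT, against 25% of H4 promoters. ATTTGCAT was in 41.2% of H2B and 38.9% of H2A promoters and in none of the H1, H3 and H4 promoters. These are matches of letters on either strand and show neither binding nor use.

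The family as a whole was low. Of the 67 genes, 50 had reads but missed the filter and 12 had no read in any library, where 3 reads would be 0.0809 to 0.111 CPM. The share of the family past the filter was 7.46%, against 58.3% of the 20585 protein-coding rows, while the share without any read was 17.9% against 21.2%. By type, the filter was passed by 1 of 6 H1 genes, 1 of 18 H2A genes, 2 of 18 H2B genes, 0 of 12 H3 genes and 1 of 13 H4 genes. The genes nearest to the filter on its lower side were H1f4 (mean 0.676 CPM, highest library 0.923), H2bc6 (0.382 and 0.784) and H1f5 (0.352 and 0.554). On its upper side were H4c9 (mean 0.671 CPM), H2aw (2.56) and H1f2 (3.11). H4c9 had a lower mean than H1f4 and passed because of 2 MT∆Ecad libraries at 1.03 and 1.23 CPM.

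Histone genes that are not tied to DNA replication were measured in the same libraries. CPM is not scaled by gene length, so levels of different genes in CPM are given side by side and not ranked. H3f3b, which encodes the replacement histone H3.3, was at 372 to 691 CPM, the linker histone gene H1f0 at 287 to 397 CPM and H1f10 at 0 to 4.54 CPM. H2bc21 reached 14.4 CPM. Other RNAs without a poly(A) tail were also near 0. Of 20 such names, 11 were matched to rows and 1, Rpph1, was tested, and the RNA components of 2 ribonucleases, Rmrp and Rpph1, were at 0.112 to 1.33 CPM and 0.195 to 1.33 CPM. The other 9, which include the U7 small nuclear RNA gene Rnu7 at 0 in every library, reached at most 0.323 CPM. The labels describe total RNA without a poly(A) selection step; the reason for these low levels was not tested.

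**Figure D1:**
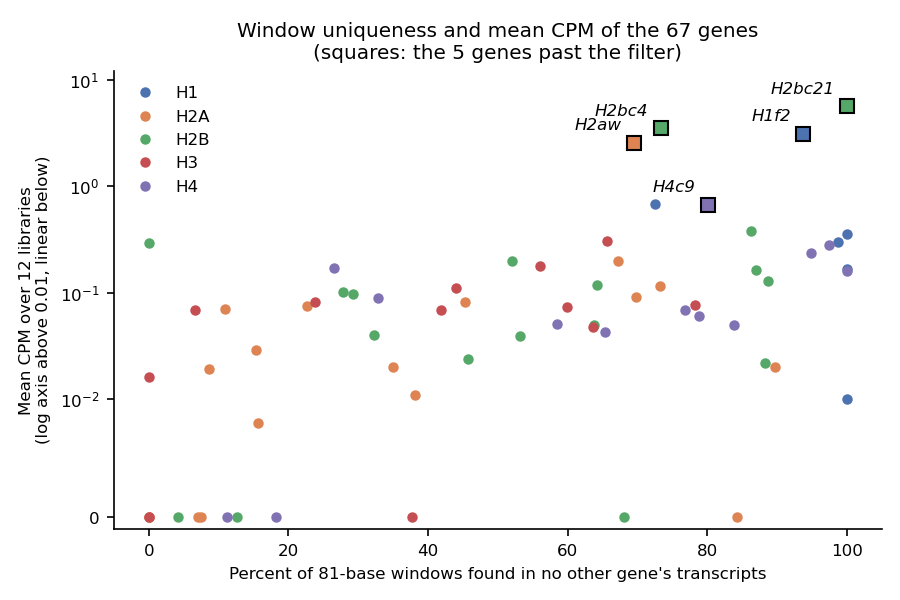
Percent of 81-base windows of each gene's GENCODE transcripts that occur in no other gene's transcripts (horizontal axis) against its mean CPM over 12 libraries (vertical axis, logarithmic above 0.01), for the 67 genes coloured by histone type; squares are the 5 genes past the filter. The 5 squares lie between 69.6% and 100%, and of 12 genes at 0 CPM, 9 lie below 20%.

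Near-identical copies are a known difficulty of this family, because a read that fits several genes may be dropped or shared. The windows of 81 bases in each gene's transcripts were therefore compared with all other GENCODE transcripts on both strands, as the plot of window uniqueness shows. The share of windows found in no other gene was 69.6% for H2aw, 73.3% for H2bc4, 80.1% for H4c9, 93.7% for H1f2 and 100% for H2bc21. Its median was 61.8% in the 50 genes with reads below the filter and 9.32% in the 12 genes without a read, of which 3 had no window of their own. Unique genes were not all high: 7 genes below the filter had at least 90% unique windows, and their mean levels were at most 0.352 CPM, that of H1f5. H2bc18 had 111 reads in the 12 libraries although none of its windows was unique. Its windows were shared with transcripts of Gm20628 and Gm42743 and with no other gene of the family. A window also counted as shared when the other transcript overlaps the gene itself, as Trim17 does with H2aw. Shared windows are therefore not always copies elsewhere in the genome. How reads with several matches were treated is not given in the sources used here, so the levels of genes with few unique windows are uncertain.

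H2bc21, an H2B gene of the chromosome 3 cluster, had its highest levels in PyMT-1099 LT. It was at 13.8 and 14.4 CPM in PyMT-1099 LT siCtl and at 11.2 and 12.7 CPM in PyMT-1099 LT siNrf2. In Py2T LT it was at 0.742 and 1.54 CPM with siCtl and at 1.001 and 1.45 CPM with siNrf2. In MT∆Ecad it was at 2.37 and 3.03 CPM with siCtl and at 2.21 and 3.11 CPM with siNrf2. The 3 lines did not overlap, with PyMT-1099 LT highest and Py2T LT lowest. H2bc21 alone made up 30.8% to 41.4% of the family's summed CPM in PyMT-1099 LT, against 10.5% to 14.6% in MT∆Ecad and 7.97% to 18.5% in Py2T LT.

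H2bc4, an H2B gene whose annotated transcript is spliced, had the same order of lines. Its levels were 7.43 and 5.20 CPM in PyMT-1099 LT siCtl and 8.57 and 4.91 CPM in PyMT-1099 LT siNrf2. In Py2T LT all 4 libraries were below 1 CPM, at 0.978 and 0.863 with siCtl and 0.743 and 0.865 with siNrf2. In MT∆Ecad it was at 2.203 and 2.40 CPM with siCtl and at 4.23 and 3.75 CPM with siNrf2, so both siNrf2 libraries lay above both siCtl libraries. How many of all genes separate in this way was not counted, for H2bc4 or for the genes below. The replicates of PyMT-1099 LT differed more from each other than the siRNA groups did.

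H1f2, the linker histone H1.2, was at 4.81 and 3.49 CPM in PyMT-1099 LT siCtl and 4.61 and 2.44 CPM in PyMT-1099 LT siNrf2. It was at 1.79 and 0.890 CPM in Py2T LT siCtl and at 1.49 and 0.977 CPM in Py2T LT siNrf2. In MT∆Ecad it was at 3.11 and 3.77 CPM with siCtl and 4.13 and 5.81 CPM with siNrf2. Py2T LT was again the lowest line, and PyMT-1099 LT and MT∆Ecad overlapped.

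H2aw, an H2A gene of the small chromosome 11 cluster, was highest in MT∆Ecad. Its levels there were 3.30 and 3.51 CPM with siCtl and 4.67 and 5.81 CPM with siNrf2, and these groups did not overlap. In PyMT-1099 LT it was at 2.80 and 3.14 CPM with siCtl and at 2.73 and 2.97 CPM with siNrf2. In Py2T LT it was at 0.506 and 0.351 CPM with siCtl and at 0.355 and 0.586 CPM with siNrf2, below 1 CPM in every library.

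H4c9, the only H4 gene past the filter, was at 0.753 and 0.714 CPM in PyMT-1099 LT siCtl and at 0.990 and 0.702 CPM in PyMT-1099 LT siNrf2. It was at 0.236 and 0.216 CPM in Py2T LT siCtl and at 0.291 and 0.195 CPM in Py2T LT siNrf2. In MT∆Ecad it was at 0.907 and 1.03 CPM with siCtl and at 1.23 and 0.784 CPM with siNrf2, and the siRNA groups overlapped. In total it had 253 reads, against 2165 for H2bc21.

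**Figure D2:**
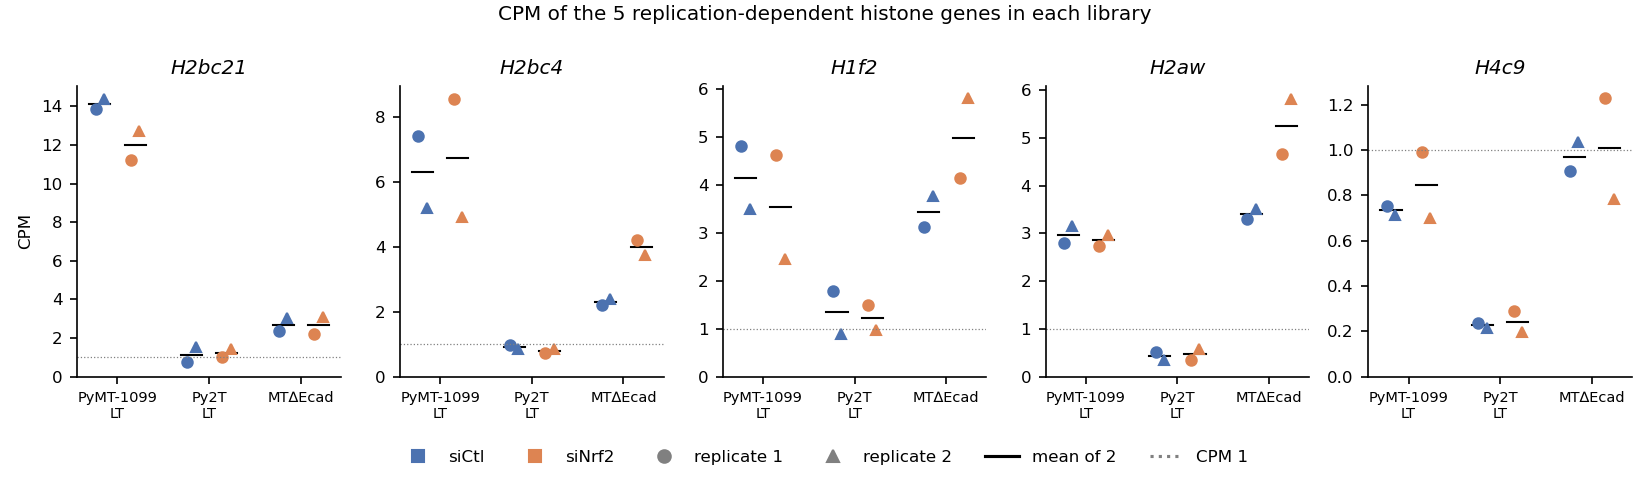
CPM of each of the 5 genes (vertical axes, which differ between panels) in the 12 libraries, by line and siRNA; circles and triangles are replicates 1 and 2, bars the mean of the 2 replicates and the dotted line 1 CPM. Py2T LT is lowest in all 5 panels, and only in MT∆Ecad do H2bc4, H1f2 and H2aw have both siNrf2 libraries above both siCtl libraries. The share of all genes that separate in this way was not computed, so this is description only.

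Apart from their place about the CPM filter, genes were ranked by level only per length. Per kilobase of GENCODE exons, the mean over the 6 groups was 3.04 CPM for H2bc4, 2.15 for H2bc21, 1.99 for H1f2, 1.19 for H2aw and 0.923 for H4c9. With the shorter RefSeq spans of the 4 genes without an intron, it was 5.04 CPM per kilobase for H2aw, 4.29 for H1f2, 2.11 for H2bc21 and 1.67 for H4c9. The order therefore depended on the annotation, except that H4c9 was lowest in both. In PyMT-1099 LT siCtl, H2bc4 (5.46 CPM per kilobase of GENCODE exons) and H2bc21 (5.385) were close, and on RefSeq spans H2aw (5.85) and H1f2 (5.72) were above H2bc21 (5.29).

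The lines differed widely in summed histone RNA. The 67 genes together reached 38.0 and 35.4 CPM in PyMT-1099 LT siCtl, 9.31 and 8.79 CPM in Py2T LT siCtl and 16.4 and 20.8 CPM in MT∆Ecad siCtl. This sum does not depend on the filter, and the 3 lines did not overlap. In bulk RNA, fewer cells that carry a transcript and less of it per cell cannot be told apart. After siNrf2 the sums were 36.5 and 30.7 CPM in PyMT-1099 LT, 8.33 and 7.84 CPM in Py2T LT and 21.1 and 26.2 CPM in MT∆Ecad. The 62 genes below the filter summed to 3.77 to 8.48 CPM over all libraries, a narrower range than the 3.86 to 29.6 CPM of the 5 genes past it.

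In summed CPM, H2B carried most of the difference between PyMT-1099 LT and the other lines, largely through H2bc21 and H2bc4. H2B genes summed to 23.9 and 21.7 CPM in PyMT-1099 LT siCtl, 2.87 and 3.67 CPM in Py2T LT siCtl and 5.96 and 7.35 CPM in MT∆Ecad siCtl. The ratio of the siCtl means of PyMT-1099 LT to Py2T LT was 6.98 for H2B, 3.90 for H2A, 2.24 for H1, 2.01 for H4 and 1.66 for H3. These ratios rest in part on 1 gene each. Without the gene of highest mean CPM in its type, the H2B ratio was 4.08 (without H2bc21) and the H2A ratio 1.68 (without H2aw). It was 1.405 for H1 (without H1f2), 1.73 for H4 (without H4c9) and 2.06 for H3 (without H3c3). Without H2bc21, the mean siCtl H2B sum was 8.69 CPM in PyMT-1099 LT and 2.13 CPM in Py2T LT. H2bc4 made up 6.31 and 0.921 CPM of these. The same ratio was 6.86 for H2bc4 alone and 1.68 for the family's genes below the filter, all types together. An H2B ratio without H2bc21 and H2bc4 together was not computed, so a difference across the H2B genes is not shown. H2A genes summed to 3.66 and 4.26 CPM in PyMT-1099 LT siCtl, which overlapped the 3.66 and 4.50 CPM in MT∆Ecad siCtl, and to 1.11 and 0.917 CPM in Py2T LT siCtl. H1 genes summed to 6.82 and 5.34 CPM in PyMT-1099 LT siCtl, 3.27 and 2.16 CPM in Py2T LT siCtl and 4.37 and 5.65 CPM in MT∆Ecad siCtl. H3 genes stayed between 0.642 and 1.51 CPM and H4 genes between 1.08 and 2.73 CPM over all 12 libraries.

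**Figure D3:**
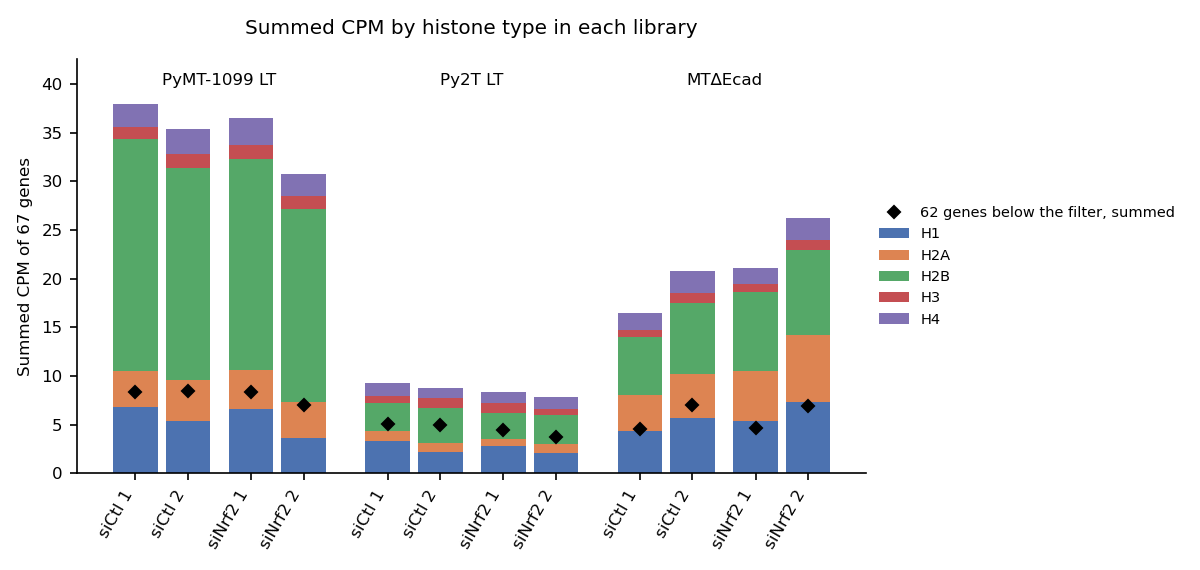
Summed CPM of the 67 genes in each of the 12 libraries (bar height), stacked by histone type, with the sum of the 62 genes below the filter as black diamonds. The PyMT-1099 LT bars reach 30.7 to 38.0 CPM, mostly from H2B, the Py2T LT bars 7.84 to 9.31 CPM and the MT∆Ecad bars 16.4 to 26.2 CPM.

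In siCtl cells the differences of the 5 genes between lines were tested with limma on log2(CPM + 1), a scale that understates the changes of genes as low as these. Calls are at an adjusted p below 0.05, with Benjamini-Hochberg adjustment over all 12502 genes. H2bc4 and H2aw had no Py2T LT library at 1 CPM and passed the filter only through the other lines, so their differences from Py2T LT had to appear. H4c9 passed only through 2 MT∆Ecad libraries, so the filter favoured a higher level in MT∆Ecad than in either other line. The number of differences between lines therefore supports nothing about the family.

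Between MT∆Ecad and PyMT-1099 LT, the 2 H2B genes were the only ones of the 5 called. H2bc21 was lower in MT∆Ecad by a log2 difference of -2.04 (SE 0.20, limma adjusted p = 1.58e-05), a ratio of the mean CPM of PyMT-1099 LT to MT∆Ecad of 5.23. H2bc4 was lower by a log2 difference of -1.13 (SE 0.21, limma adjusted p = 0.00144). The other log2 differences were -0.21 for H1f2 (95% confidence interval -0.83 to 0.42), 0.15 for H2aw (-0.13 to 0.43) and 0.18 for H4c9 (-0.08 to 0.45). Thus 2 of 5 genes were called lower and 0 higher, where 30.6% and 27% of all genes were. At an unadjusted p below 0.05, limma gave the same 2 genes, and edgeR and DESeq2 each called 2.

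Against Py2T LT all 5 genes were called higher in MT∆Ecad, where 25.9% of all genes were called higher and 28.6% lower. H2aw had the largest log2 difference, 1.63 (SE 0.12, limma adjusted p = 2.96e-06), a ratio of mean CPM of 7.95. H1f2 differed by 0.95, H2bc21 by 0.81, H2bc4 by 0.78 and H4c9 by 0.68 on the log2 scale, with limma adjusted p-values of 0.0163, 0.0071, 0.0121 and 0.000935. By ratio of mean CPM their order was another, with H4c9 at 4.29, H1f2 at 2.57, H2bc4 at 2.50 and H2bc21 at 2.365. The count fell to 3 without Py2T LT siCtl replicate 2 and to 2 without MT∆Ecad siCtl replicate 2, in which H2aw and H4c9 were called, and was 4 without Py2T LT siCtl replicate 1.

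Relative to PyMT-1099 LT all 5 genes were called lower in Py2T LT, where 27.5% of all genes were called lower and 28.1% higher. The log2 difference was -2.85 for H2bc21 (SE 0.20, limma adjusted p = 1.42e-06), with a ratio of mean CPM of PyMT-1099 LT to Py2T LT of 12.4. It was -1.91 for H2bc4, -1.48 for H2aw, -1.15 for H1f2 and -0.50 for H4c9. These 3 line comparisons share their siCtl samples and are not independent of each other.

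**Figure D4:**
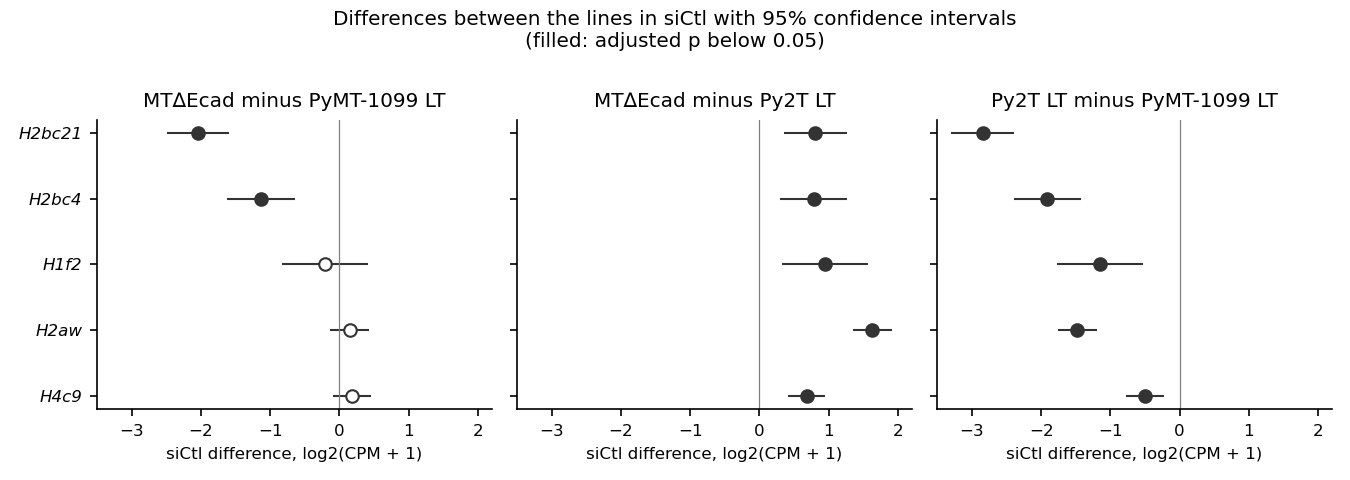
Differences between lines in siCtl cells for the 5 genes on the log2(CPM + 1) scale (horizontal axes), as limma estimates with 95% confidence intervals; filled points have an adjusted p below 0.05. H2bc21 and H2bc4 lie left of 0 in MT∆Ecad minus PyMT-1099 LT, and H1f2, H2aw and H4c9 have intervals that include 0 there.

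Genes of the family below the filter did not share a single order of lines. H1f1, an H1 gene with all windows unique, had 46 reads in the 4 PyMT-1099 LT libraries, 17 in Py2T LT and 1 in MT∆Ecad. H2bc6, an H2B gene, had 40, 18 and 86 reads, and H1f4 had 86, 80 and 90. H1f5 had 50, 32 and 53 reads and H3c3, the H3 gene with the most reads, 41, 35 and 43. These reads are not scaled to library totals, and those of H1f4 and H3c3 are too close between lines to give an order. H1f1 and H3c3, like H2bc18 above, were chosen after their values were seen, and no test was run on genes below the filter.

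The siRNA lowered its target. Nfe2l2 was at 113 and 113 CPM in PyMT-1099 LT siCtl and 25.7 and 33.3 CPM with siNrf2, at 89.7 and 83.6 against 21.9 and 24.5 CPM in Py2T LT, and at 208 and 209 against 50.8 and 54.0 CPM in MT∆Ecad. Its log2 differences were -1.91, -1.86 and -1.97.

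Averaged over the 3 lines, none of the 5 histone genes changed after siNrf2 at the threshold. Their log2 differences were 0.19 for H2bc4 (SE 0.12), 0.16 for H2aw (SE 0.07), 0.05 for H1f2, 0.04 for H4c9 and -0.06 for H2bc21, with limma adjusted p-values of 0.369, 0.167, 0.878, 0.758 and 0.806. The median over all tested genes was -0.01, and 5.99% of them were called higher and 6.26% lower. At an unadjusted p below 0.05, 1 gene, H2aw, passed in limma, and edgeR and DESeq2 called 0. Samples with the same replicate number deviated together within each line, and with the replicate number as a block limma called H2bc4 higher (the same log2 difference, adjusted p = 0.0409), as it did 19% of all genes.

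In MT∆Ecad 1 gene was called. H2aw rose by 0.50 on the log2 scale (SE 0.12, 95% confidence interval 0.22 to 0.78, limma adjusted p = 0.0251), a ratio of mean CPM of 1.54. It was the only 1 of the 5 genes called, where 8.89% of all genes were called higher and 8.42% lower. H2bc4 had a log2 difference of 0.59 (95% confidence interval 0.11 to 1.08, limma adjusted p = 0.0914) and H1f2 of 0.42 (-0.21 to 1.04, adjusted p = 0.361). H2bc21 and H4c9 had values of -0.02 and 0.02, with intervals of -0.47 to 0.43 and -0.25 to 0.29.

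With the replicate block, 3 of the 5 genes were called higher in MT∆Ecad, where limma called 21.4% of all genes higher. Their adjusted p-values in this limma fit were 0.00366 for H2bc4, 0.00943 for H2aw and 0.0207 for H1f2, and each was higher with siNrf2 in both numbered pairs. The edgeR test on recovered whole reads with the same block, an alternative chosen after seeing the data, called the same 3 genes and 23.4% of all genes higher. The call of H2aw without the block rested on the libraries and the scale: its limma adjusted p was 0.148 without MT∆Ecad siCtl replicate 1, 0.072 without siCtl replicate 2, 0.182 without siNrf2 replicate 2 and 0.0737 with a pseudocount of 0.25, and it was 0.0744 in edgeR and 0.12 in DESeq2. Over its 21 alternatives the adjusted p ranged from 0.00943 to 0.182, and H2aw was called in 15. H2bc4 was also called in MT∆Ecad when either PyMT-1099 LT siNrf2 library was left out of the fit.

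In the other lines no member was called. PyMT-1099 LT had log2 differences between -0.22 (H2bc21 and H1f2) and 0.09 (H4c9), and 0.336% of all genes were called higher and 0.184% lower. Py2T LT had log2 differences between -0.09 (H2bc4) and 0.08 (H2bc21), and 0.056% and 0.096% of all genes were called. At an unadjusted p below 0.05, limma gave 0 genes in each line, and edgeR and DESeq2 called 0. With the block, limma gave 1 gene at an unadjusted p below 0.05 in PyMT-1099 LT, H2bc21 at a log2 difference of -0.22 and an adjusted p of 0.157.

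Whether the response to siNrf2 differed between the lines was tested with an F test over the 3 lines. None of the 5 genes passed, where 2.18% of all genes did: the limma adjusted p was 0.243 for H2aw, 0.49 for H2bc4, 0.759 for H1f2, 0.97 for H2bc21 and 0.997 for H4c9. With the block, H2bc4 passed (adjusted p = 0.0328 in limma), where 19% of all genes did. H1f2 and H2aw had adjusted p-values of 0.0579 and 0.0782 there. Without the block, edgeR and DESeq2 called 0 genes in this test, and 1 gene, H2aw, had an unadjusted limma p below 0.05.

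**Figure D5:**
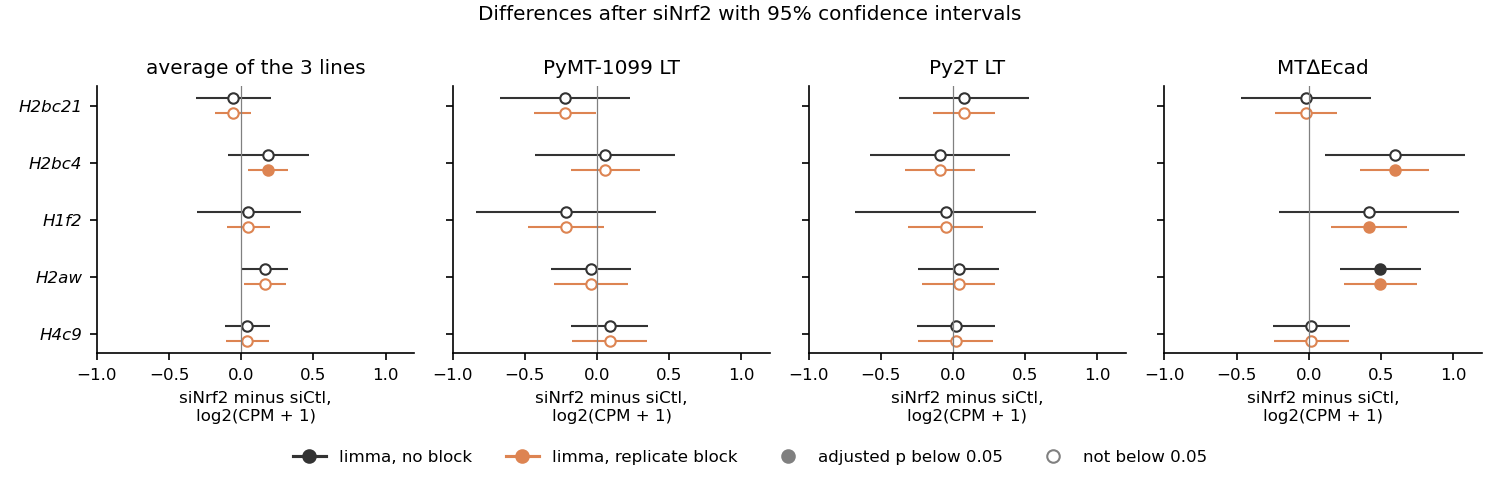
Differences after siNrf2 for the 5 genes on the log2(CPM + 1) scale (horizontal axes), averaged over the lines and in each line, as limma estimates with 95% confidence intervals without (dark) and with (orange) the replicate block; filled points have an adjusted p below 0.05. The filled points lie in MT∆Ecad, for H2aw without the block and for H2bc4, H1f2 and H2aw with it, apart from H2bc4 with the block in the average.

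By type, the H2A sum was 3.66 and 4.50 CPM in MT∆Ecad siCtl and 5.14 and 6.94 CPM in MT∆Ecad siNrf2, a ratio of means of 1.48. Without H2aw it was 0.677 against 0.803 CPM (group means), a ratio of 1.19. The H2B sum was 5.96 and 7.35 CPM against 8.10 and 8.74 CPM, a ratio of 1.27, and 1.46 without H2bc21. H2bc21 itself had a ratio of 0.986, and the sum without it still included H2bc4, with a ratio of 1.73. The H1 sum overlapped between the groups, at 4.37 and 5.65 CPM against 5.39 and 7.29 CPM, and the ratio of its means was 1.27 with H1f2 and 0.872 without it. H3 and H4 sums had ratios of 0.978 and 1.003, and the sum of the 62 genes below the filter a ratio of 1. In PyMT-1099 LT and Py2T LT the ratio for all 67 genes was 0.916 and 0.893.

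Genes that work in S phase, the part of the cell cycle in which DNA is copied, fell in MT∆Ecad. Of 30 such genes, 23 were called lower and 0 higher after siNrf2 there, where 8.42% of all genes were called lower, with a median log2 difference of -0.64, against a median of 0 over all genes; with the block, 30 were called lower, where limma called 21.2% of all genes lower. On the average of the lines 23 fell, where 6.26% of all genes did, with a median of -0.34, and 30 with the block, where 21% of all genes were called lower. The 3 with the largest falls on average were Tk1, thymidine kinase of the DNA precursor pathway (log2 difference -0.69, limma adjusted p = 0.00149), Cdca7, a chromatin-associated protein (-0.56, 0.000617), and Uhrf1, which maintains DNA methylation (-0.55, 0.00231). In MT∆Ecad, Tk1 was at 107 and 110 CPM with siCtl and at 45.3 and 56.5 CPM with siNrf2. In PyMT-1099 LT 0 of the 30 were called without the block and 12 were lower with it, where 3.95% of all genes were lower. In Py2T LT 0 were called without the block and 1 was lower with it, where 0.672% of all genes were. Whether the levels of S-phase genes and of the 5 histone genes are linked was not tested.

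Some factors that make and degrade histone mRNA fell as well. Of 37 such genes, 7 were called lower and 1 higher on the average of the lines, with a median of -0.15, where 6.26% of all genes were lower and 5.99% higher. With the block 20 were lower and 1 higher, where 21% and 19% of all genes were. In MT∆Ecad 8 were lower and 1 higher, beside 8.42% and 8.89% of all genes, and with the block 21 and 2, beside 21.2% and 21.4%. Slbp was at 68.6 and 68.4 CPM in MT∆Ecad siCtl and at 53.8 and 52.5 CPM with siNrf2, and its average log2 difference was -0.26 (limma adjusted p = 0.0345). Lsm3, a subunit of the ring that starts decay of histone mRNA, fell by 0.32 on the log2 scale, Eri1, the exonuclease that trims its end, by 0.31, and Lsm11, of the U7 particle, by 0.28 on average, with limma adjusted p-values of 0.01, 0.0365 and 0.0356. Npat and Casp8ap2, which act at histone gene promoters, had average differences of -0.18 and -0.24 with adjusted p-values of 0.677 and 0.652. In PyMT-1099 LT and Py2T LT 0 of the 37 were called without the block, and with it 2 were lower in PyMT-1099 LT.

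Some histone chaperones, which carry new histones to DNA, also fell. Of 26, 9 were called lower and 0 higher on average (median -0.21), where 6.26% of all genes were lower and 5.99% higher, and with the block 19 lower and 1 higher, where 21% and 19% were. In MT∆Ecad 12 were lower and 1 higher, beside 8.42% and 8.89% of all genes, and with the block 18 and 1, beside 21.2% and 21.4%. The 3 with the largest average falls were Chaf1b, a subunit of the assembly factor CAF-1 (log2 difference -0.36, limma adjusted p = 0.00879), Tonsl, which reads new histone H4 (-0.34, 0.0103), and Set (-0.29, 0.0488). Of 11 tested genes for histone variants, taken from outside the Hist1h to Hist4h family, 3 were lower on average and 0 higher (median -0.09). Beside them 6.26% of all genes were lower, and with the block 4 were lower, beside 21%. The 3 without the block were H2ax, the variant phosphorylated at DNA breaks (-0.38, limma adjusted p = 0.0367), Cenpa, the centromeric H3 (-0.28, 0.0313), and Macroh2a2 (-0.25, 0.022). In MT∆Ecad 3 of these 11 were lower, beside 8.42% of all genes, and 5 with the block, beside 21.2%.

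In siCtl cells, between Py2T LT and PyMT-1099 LT, 7 of 30 S-phase genes were called higher in Py2T LT and 6 lower (8 and 7 with the block), with a median log2 difference of 0.12. The shares over all genes were 28.1% higher and 27.5% lower, above those of the S-phase genes. Slbp was higher in Py2T LT, at 87.7 and 89.0 CPM against 55.6 and 54.0 CPM in PyMT-1099 LT (log2 difference 0.68, limma adjusted p = 0.00065). Between MT∆Ecad and Py2T LT, 1 S-phase gene was called higher and 10 lower (1 and 11 with the block), with a median of -0.16, where 25.9% of all genes were higher and 28.6% lower. Between MT∆Ecad and PyMT-1099 LT 3 were higher and 10 lower (5 and 12 with the block), with a median of -0.11, where 27% of all genes were higher and 30.6% lower.

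Depth and cell type markers were measured in the same 12 libraries. The libraries held 27088970 to 37070635 reads, so 1 CPM stands for 27.1 to 37.1 reads. The 8 mesenchymal markers summed to 9965 to 17427 CPM and the 9 epithelial markers to 1126 to 5413 CPM. Cdh1 (E-cadherin) was at 0.315 to 0.639 CPM in MT∆Ecad, the line in which E-cadherin is deleted. Of 7 markers of immune and endothelial cells, the T cell gene Cd3e was at 0 in every library and Ptprc at most at 0.0571 CPM, while the endothelial cadherin Cdh5 reached 124 CPM in PyMT-1099 LT, the line with the highest H2bc21. Of the 9 epithelial markers, 8 were lower and 1 higher in MT∆Ecad than in Py2T LT (28.6% and 25.9% of all genes), 4 were lower and 2 higher in MT∆Ecad than in PyMT-1099 LT (30.6% and 27%), and 2 were lower and 6 higher in Py2T LT than in PyMT-1099 LT (27.5% and 28.1%). Mesenchymal markers summed to 16528 and 17427 CPM in MT∆Ecad siNrf2 against 12057 and 12632 CPM in siCtl, beside the H2aw difference there. Most of this was Fn1 (fibronectin), at 8807 and 9687 CPM with siNrf2 against 5248 and 5690 CPM with siCtl. Zeb2 went the other way, at 44.1 and 38.6 CPM with siNrf2 against 69.8 and 47.3 CPM with siCtl. Of the 8 mesenchymal markers 1 was called higher, beside 8.89% of all genes, and with the block 3 higher and 1 lower, beside 21.4% and 21.2%. Fn1 and Zeb2 were singled out in MT∆Ecad after their values were seen. On the average of the lines, 1 epithelial marker was called higher, Krt18 (log2 difference 0.32, limma adjusted p = 0.0315), and 1 lower, Krt14 (-0.88, 0.000536). Of the mesenchymal markers 1 was called higher, Fn1 (0.325, 0.00732). Over all genes 5.99% were higher and 6.26% lower. With the block 3 epithelial markers were higher and 2 lower, and 1 mesenchymal marker higher and 1 lower, beside 19% and 21%. The markers' part in the histone results was not tested.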

How the data were processed

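RNA levels were analysed in 12 libraries. The authors deposited CPM values (counts scaled to a common total in each library); STAR and mm10 are named in the submitters' processing notes, and the counting tool, annotation, strand setting and treatment of reads with several matches are not given in the sources used here. Of 24454 rows, 24374 Entrez identifiers were matched to RefSeq. Whole reads were recovered for 100% of values (tolerance 0.01 reads).

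Genes with at least 1 CPM in at least 2 libraries (12502) were fitted as log2(CPM + 1) with limma 3.58.1 in R 4.3.3, with 1 mean for each of the 6 groups, 6 residual degrees of freedom and a variance trend. P-values were two-sided, adjusted by Benjamini-Hochberg over all genes, with a threshold of 0.05. Same-numbered samples deviated together within each line (correlation across genes 0.778 for the line PyMT-1099 LT, 0.846 for Py2T LT, 0.625 for MT∆Ecad), so values with the replicate block are given beside results whose calls they change; what the number marks is not given in the labels. The alternatives were other pseudocounts, filters and scalings, no variance trend, the block, each library left out, and edgeR 4.0.16 and DESeq2 1.42.0 on the recovered reads. The scripts were tested on simulated data.

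Sequences were taken from GENCODE M21 transcripts and RefSeq GRCm38.p6 promoters with Python 3.11.15 and pandas 2.3.3. The stem-loop was searched over everything after the stop codon, not in the last 120 bases as first planned, because annotated ends lie beyond it. Genes were named by rule: the 3 highest of each type per kilobase, the largest called differences, the 3 genes on each side of the filter, and, of each list, the 3 called genes with the largest average change plus Slbp, Npat and Casp8ap2. The members and the lists (histone variants, histone mRNA factors, chaperones, S-phase genes, RNAs without a poly(A) tail, cell type markers) were chosen with earlier results of these data known.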

Additional observations from a re-analysis of the deposited data

How the results depend on the processing

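Most single-gene results kept their direction and their side of the threshold: 443 of 480 with 1 library left out and 362 of 376 under the other settings. The number of the 5 genes called higher after siNrf2 in MT∆Ecad, 1 in the main analysis, was 0 with a pseudocount of 0.25, 0 in edgeR, 0 in DESeq2 and 0 with a filter at 5 CPM, which tests only H2bc21 and H2bc4. It was 3 with the replicate block in limma, 3 in edgeR with the replicate block (added after seeing the data), and 0 to 2 with 1 library left out. With the replicate block, 1 gene was called higher on the average of the lines and 1 in the test between lines, against 0 without it, and it changed no other call of the 5 genes. The 5 genes called between MT∆Ecad and Py2T LT became 2 with the filter at 5 CPM, 4 with a pseudocount of 5 (H2bc4, limma adjusted p = 0.0867) and 2 to 5 with 1 library left out, and the 5 between Py2T LT and PyMT-1099 LT became 2 with that filter. H1f2 lost its call between Py2T LT and PyMT-1099 LT without Py2T LT siCtl replicate 2 (limma adjusted p = 0.0501).
The directions that reversed belonged to differences that were not called, and the cause was not tested. H2bc21 in MT∆Ecad was -0.02 in the main analysis and 0.003 with TMM scaling, 0.018 in edgeR, 0.008 in DESeq2 and 0.008 in edgeR with the replicate block. With 1 library left out, the log2 differences after siNrf2 ran as follows. On the average of the lines they ran from -0.146 to 0.035 for H2bc21, from -0.067 to 0.168 for H1f2 and from -0.012 to 0.095 for H4c9. In PyMT-1099 LT they ran from -0.29 to 0.405 for H2bc4, from -0.568 to 0.136 for H1f2, from -0.105 to 0.02 for H2aw and from -0.027 to 0.199 for H4c9. In Py2T LT they ran from -0.196 to 0.346 for H2bc21, from -0.331 to 0.23 for H1f2, from -0.074 to 0.153 for H2aw and from -0.036 to 0.074 for H4c9. In MT∆Ecad they ran from -0.199 to 0.158 for H2bc21 and from -0.142 to 0.179 for H4c9.
Over all genes, the replicate block moved the average from 749 higher and 783 lower to 2370 and 2627, MT∆Ecad from 1111 and 1053 to 2676 and 2648, PyMT-1099 LT from 42 and 23 to 631 and 494, and Py2T LT from 7 and 12 to 43 and 84. The edgeR counts were 403 and 453, 920 and 680, 2 and 11, and 0 and 6, and those of DESeq2 690 and 578, 1016 and 848, 43 and 43, and 2 and 31. Summed CPM of a type in a group moved by less than 1 SD in 30 of 30 cases with TMM scaling, and by more in 29 of 30 without the gene of highest mean CPM in its type. Depth limits what the low genes can show, since 1 CPM stands for 27.1 to 37.1 reads, and intervals of the 5 genes include differences of either sign for most contrasts after siNrf2.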
